A study of Mus musculus with 35 samples.

Results

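Translation initiation factors are the 51 protein-coding genes, of 54838 gene rows in the count tables, whose symbol in GENCODE M21 starts with Eif1, Eif2, Eif3, Eif4, Eif5 or Eif6, with the Eif2ak kinases left out. Members were chosen by symbol and annotation, and no measured value entered the rule, but the family was picked out with results of these embryos already known, so counts of its members describe these embryos. Polyadenylated RNA was sequenced from 35 late 2-cell mouse embryos, 1 library each, of the F1(C57BL/6JxCBA/H) background with Smart-seq+5', which yields fragments from transcript 5' ends (5' reads) beside fragments from within the transcript (internal reads). Microinjection was at 24 h after hCG and collection at 48 h, with culture in KSOM medium between them. Double-LOF embryos (10) received an antisense oligonucleotide against DUX (DUX_ASO) together with mRNA for SRF-DN, a dominant negative form of SRF, SRF-LOF embryos (7) received SRF-DN mRNA alone, DUX-LOF embryos (9) DUX_ASO alone, and control embryos (9) a scrambled antisense oligonucleotide (SCR_ASO). No group received a control mRNA, so SRF-DN and the injection of mRNA as such cannot be told apart. SRF-LOF embryos received no oligonucleotide, so in SRF-LOF against control the lack of an oligonucleotide cannot be told apart from these either. SRF (serum response factor) and DUX (a homeodomain factor of the 2-cell stage) are transcription factors, and the series asks what SRF does for retrotransposons and genes while the zygotic genome is activated.

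Initiation factors bring a ribosome to the start codon of an mRNA. eIF1 and eIF1A keep the small ribosomal subunit open for scanning, eIF2 carries the initiator tRNA and is recharged with GTP by eIF2B, eIF3 is the large scaffold on the small subunit, and the eIF4 factors bind the cap, unwind the leader and join mRNA to eIF3. eIF5, eIF5B and eIF6 act in GTP hydrolysis and in the meeting of the ribosomal subunits. In oocytes and early embryos much maternal mRNA is stored untranslated, and proteins that bind eIF4E are known to hold it so.

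Internal gene counts per embryo lay between 220921 and 2039475, and 5' gene counts between 505157 and 2343900. Initiation factor genes held on average 0.879% of the internal gene counts of double-LOF embryos, 1.08% of those of SRF-LOF, 0.991% of those of DUX-LOF and 1.18% of those of control embryos. Srf reads lay at 204.5 to 1677 CPM (library-scaled counts, with edgeR's TMM factors) in double-LOF and 93.02 to 810.0 CPM in SRF-LOF embryos, against 15.0 to 52.3 CPM in DUX-LOF and 11.3 to 42.4 CPM in control embryos. Duxf3, the gene of DUX, had medians of 7.76 CPM in double-LOF, 12.2 CPM in SRF-LOF, 2.76 CPM in DUX-LOF and 7.76 CPM in control embryos, with 120 CPM in DUX-LOF 10, and all groups overlapped. SRF-LOF 3 and SRF-LOF 8 stood apart: on the first principal component, with 34.03% of the variance, they scored -35.4 and -8.73, against 97.9 to 136 for the other 5 SRF-LOF embryos. Double-LOF 7 (94.5, against -107 to 22.3 for the others) and control 2 and 9 (102 and 78.2, with control 8 at 49.2, against -80.3 to 5.31) also stood apart. All 9 late 2-cell markers were detected in every group, with summed means of 895 CPM in double-LOF, 3510 CPM in SRF-LOF, 607 CPM in DUX-LOF and 2458 CPM in control embryos. The control median was 1099 CPM: control 1, 3, 4, 5 and 6 had 580 to 1099 CPM, and control 2, 8, 9 and 10 had 3363 to 5810 CPM. Double-LOF embryos spanned 459 to 1225 CPM, SRF-LOF embryos 1219 to 6452 CPM and DUX-LOF embryos 288 to 874 CPM. Maternal oocyte transcripts (29 genes) summed on average to 15900 CPM in double-LOF, 35230 CPM in SRF-LOF, 10020 CPM in DUX-LOF and 18380 CPM in control embryos, and to 16650 and 16360 CPM in SRF-LOF 3 and 8. The summed markers of other sources had group means of at most 24.8 CPM (9 cumulus genes), 6.21 CPM (5 sperm genes) and 97.4 CPM (6 blood genes), and Fshr, Hbb-bt and Hbb-bs were at 0 in all groups. The part that these differences between libraries play in the results below was not tested.

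The members together stood lower in the groups that received DUX_ASO, in TMM-scaled CPM. Their summed level was 8320 ± 1338 CPM in double-LOF, 12780 ± 1720 CPM in SRF-LOF, 8720 ± 993 CPM in DUX-LOF and 12500 ± 999.9 CPM in control embryos (mean ± SD). DUX-LOF embryos reached at most 10210 CPM, while the lowest control stood at 10960 CPM, and the highest double-LOF embryo, at 11330 CPM, overlapped the controls. The gap between DUX-LOF and control embryos held only after TMM scaling. As unscaled shares of internal gene counts the members had 0.853% to 1.20% in DUX-LOF and 0.882% to 1.44% in control embryos, which overlapped. CPM are shares of a library, here scaled by TMM factors: a lower share, less RNA per cell and fewer cells in an embryo cannot be told apart. Compared per kilobase of annotated exon, levels in control embryos were highest for Eif5a, the hypusine-bearing factor, at 702 ± 104 CPM per kb, and for Eif1, at 612 ± 197 CPM per kb, whose embryos overlapped. Eif2b1 (291 ± 135 CPM per kb), Eif6 (243.5 ± 104 CPM per kb) and Eif4a1 (192 ± 61.9 CPM per kb) followed, and neighbours among these 3 did not differ beyond their spread. Levels passed 100 CPM per kb for 10 members and lay under 10 CPM per kb for 9, the lowest being Eif4ebp3 with 1.001 ± 0.87 CPM per kb.

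**Figure D1:**
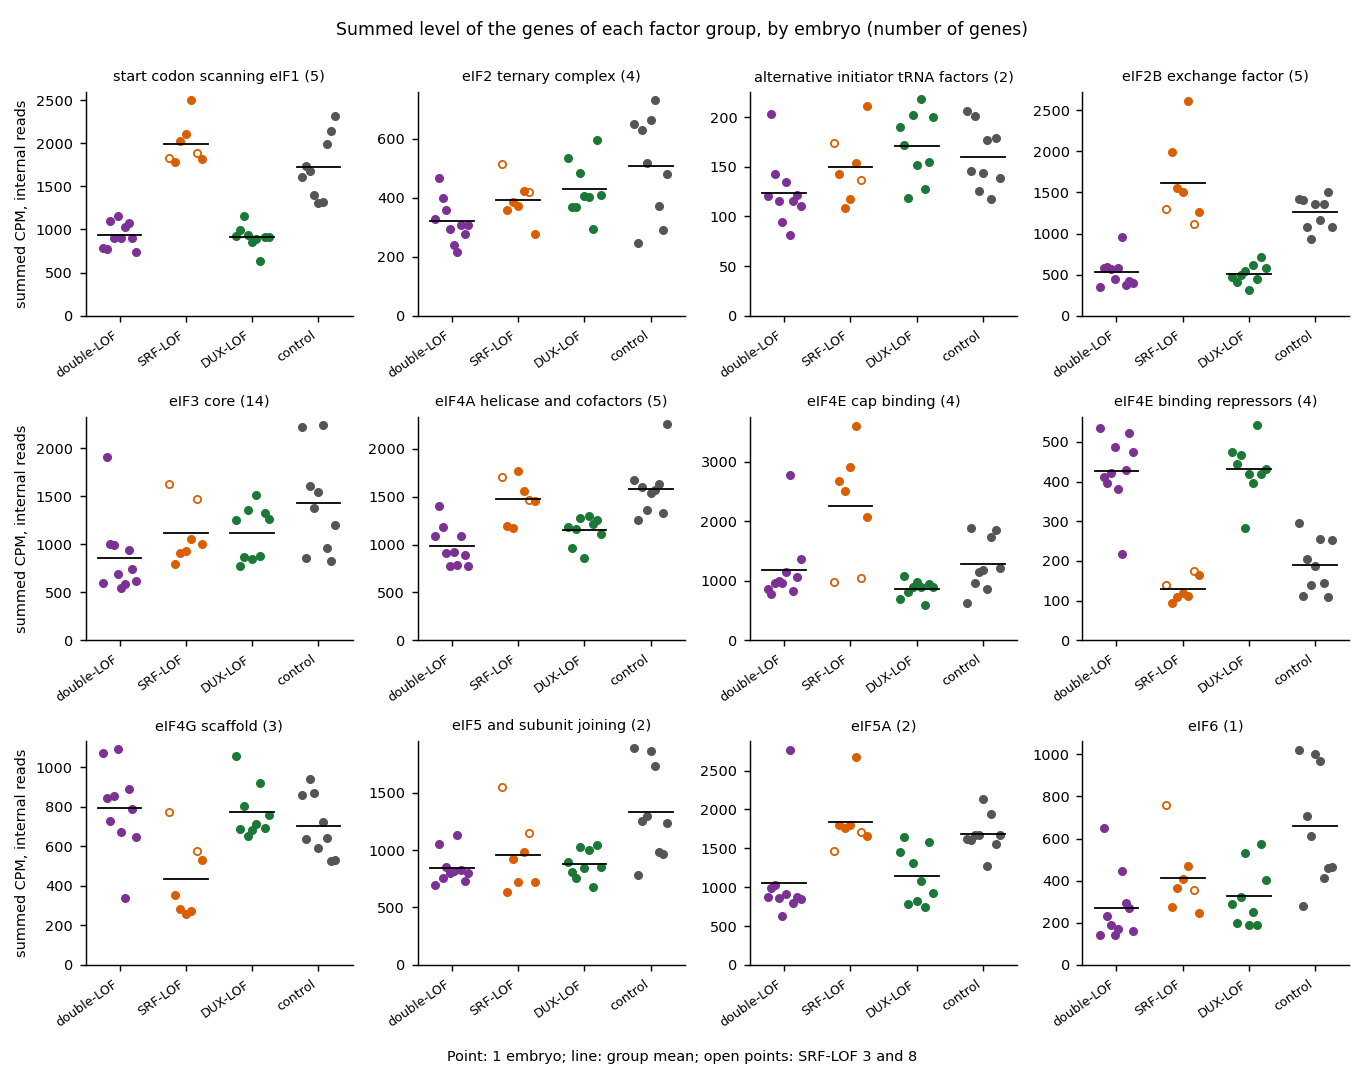
Summed internal-read level (CPM) of each factor group in every embryo, with the number of genes in brackets; a point is 1 embryo, a line the group mean, and open points are SRF-LOF 3 and 8. The eIF2B genes averaged 526 CPM in double-LOF and 510.1 CPM in DUX-LOF embryos, against 1258 CPM in controls. The genes of proteins that bind eIF4E averaged 427 and 430.5 CPM against 189 CPM. With DUX_ASO this sum was held mostly by Eif4enif1, while in controls Eif4ebp1 had the largest part. Eif4enif1 alone averaged 364 and 352.5 CPM against 73.5 CPM. Eif4ebp1 went the other way, with 15.05 and 30.1 CPM against 88.7 CPM, and Eif4ebp2 had 44.2 and 44.0 CPM against 26.4 CPM.

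Group differences were tested with edgeR's quasi-likelihood test on internal counts of all genes, with p-values adjusted after Benjamini and Hochberg over 12261 genes and a threshold of 0.05. Of the 51 members 50 had enough counts to be tested, Eif4ebp3 being the exception, and 28 passed in at least 1 comparison. In double-LOF against control embryos 21 of 50 members passed, 2 higher and 19 lower, while 19.4% of all genes passed (10.1% higher and 9.31% lower). In DUX-LOF against control embryos 15 passed, 2 higher and 13 lower, beside 17% of all genes (8.76% higher and 8.21% lower). Without DUX-LOF 10, the embryo with the high Duxf3 level, 9 passed in DUX-LOF against control, beside 14.1% of all genes. In SRF-LOF against control embryos 1 member passed, Eif1b, which was higher, beside 2.02% of all genes (1.37% higher and 0.652% lower), and 23 of 50 had an unadjusted p under 0.05. The count of members past the adjusted threshold, 1 with all libraries, was 15 without SRF-LOF 3, beside 15.7% of all genes. It was 6 without SRF-LOF 8, beside 10.1%, and 6 without control 2, beside 8.19%. It was 0 when any 1 of SRF-LOF 4, 5, 6, 7 and 9 was left out. The same held for any 1 of control 3, 4, 5, 6 and 10, and all these omissions stood beside 0.064% to 1.13% of all genes. The median log2 fold change of the members was -0.71 in double-LOF, -0.52 in SRF-LOF and -0.38 in DUX-LOF over control embryos, beside medians of -0.04, -0.07 and -0.08 for all genes. These 3 comparisons share the control embryos. Scaling to the maternal list instead moved the median of all genes in DUX-LOF over control to 0.73 and that of the members to 0.35, so that the members stayed below all genes but above zero, with 6 members higher and 1 lower. Without TMM factors 4 were higher and 5 lower in DUX-LOF against control, with ERCC spike-in scaling 1 was higher and 2 lower, and in double-LOF against control scaling to the maternal list gave 2 higher and 6 lower.

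**Figure D2:**
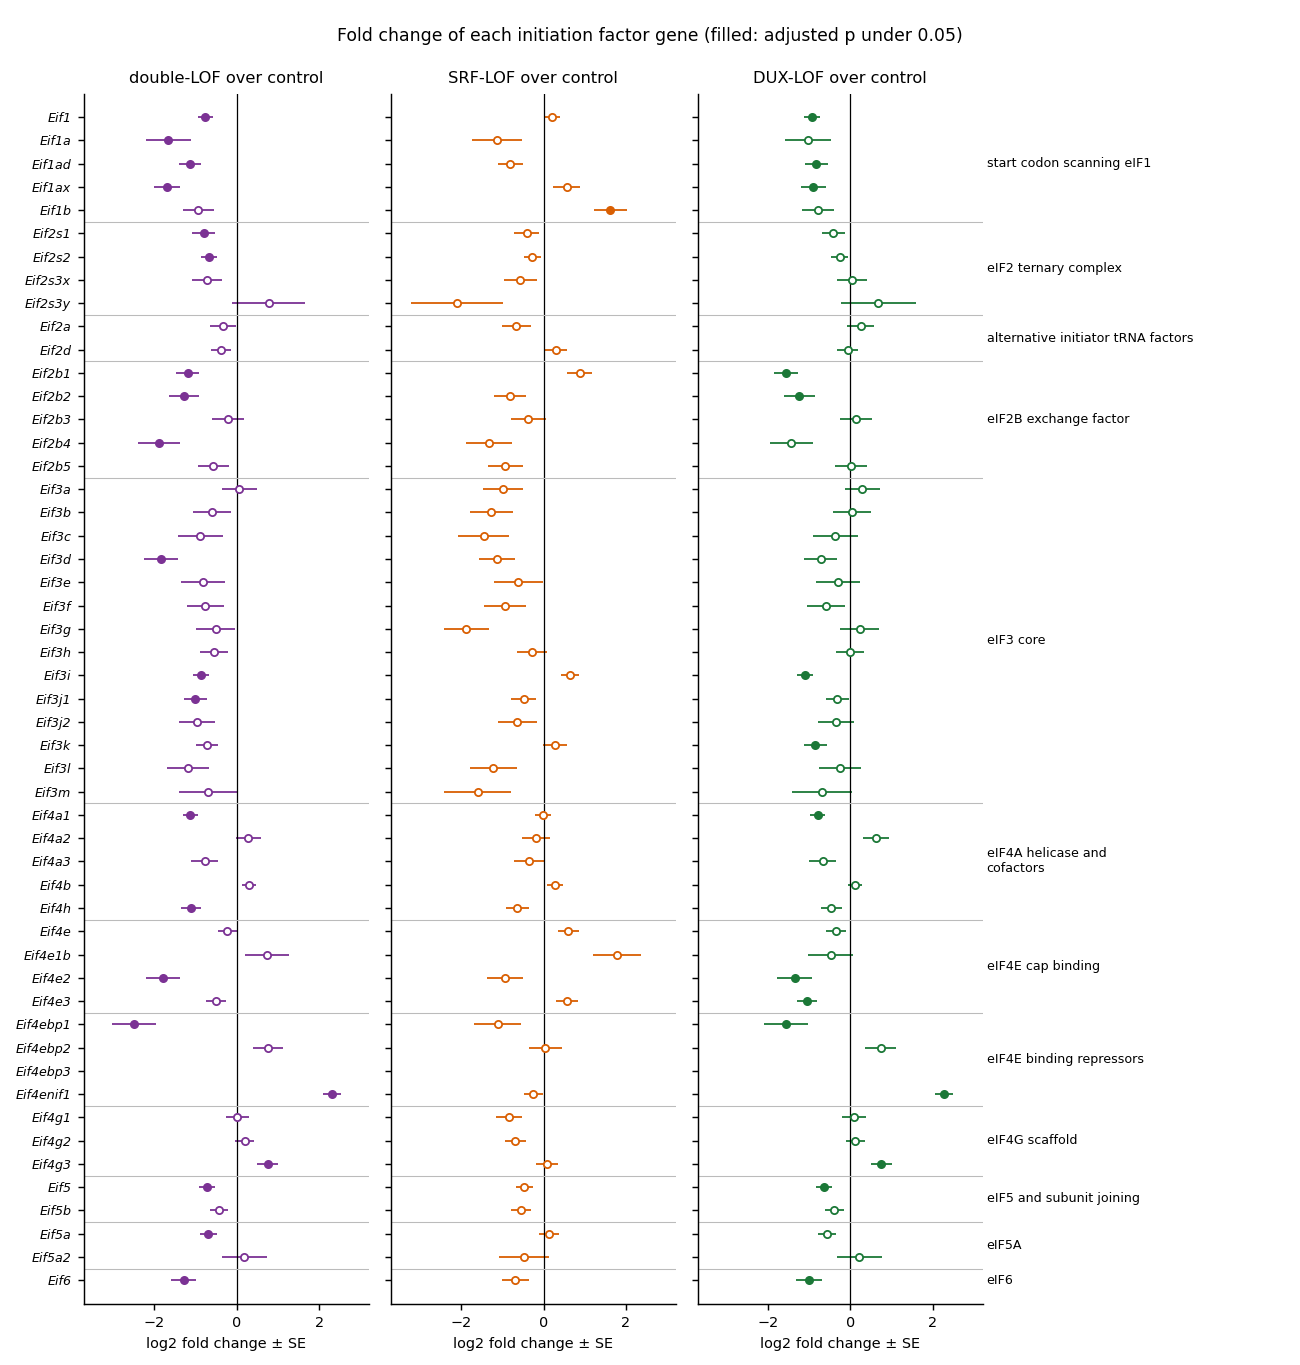
Log2 fold change ± SE of each tested member over control embryos, in double-LOF (left), SRF-LOF (middle) and DUX-LOF embryos (right), ordered by factor group; filled points had an adjusted p under 0.05. Filled points number 21 in double-LOF, 1 in SRF-LOF and 15 in DUX-LOF embryos, and Eif4enif1 stands alone above 2, in double-LOF and DUX-LOF embryos, while Eif4ebp1 lies at -2.48 in double-LOF embryos.

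**Figure D3:**
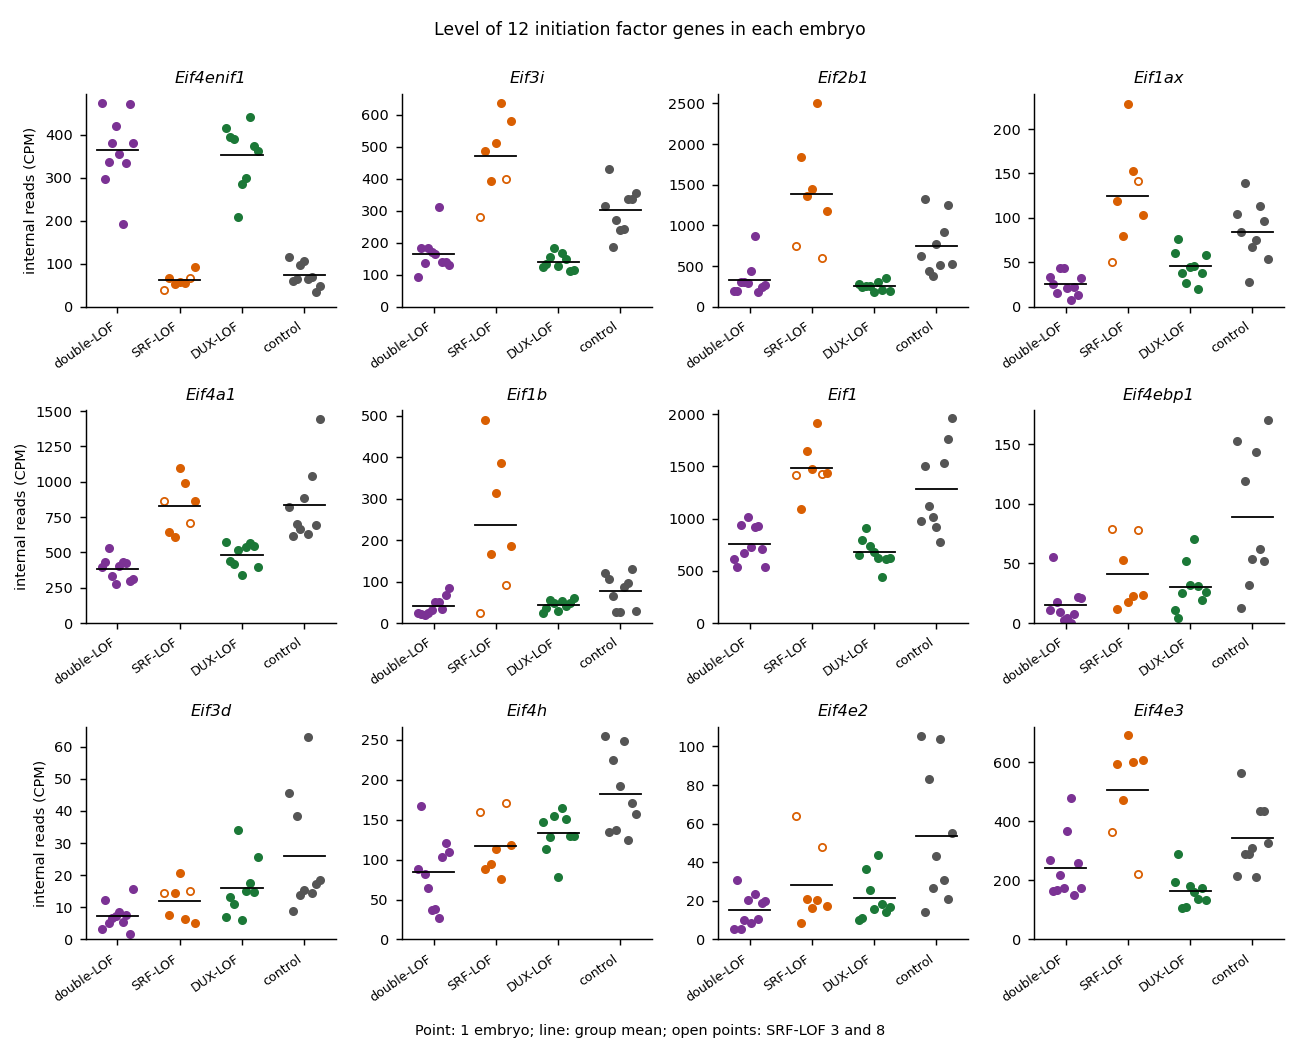
Internal-read level (CPM) in every embryo of the 12 members with the smallest adjusted p; a point is 1 embryo, a line the group mean, and open points are SRF-LOF 3 and 8. Eif4enif1 lay at 192 CPM or more in every double-LOF and DUX-LOF embryo and at 115 CPM or less in every SRF-LOF and control embryo.

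The scanning factors eIF1 and eIF1A each have a pair of genes. The opening coding bases of Eif1 and Eif1b are shown because they set close paralogues side by side, of which Eif1b passed in SRF-LOF against control and Eif1 did not. Capitals mark the 19 of 120 positions at which they differ (GENCODE M21, GRCm38, Eif1 from chromosome 11, 100320130, plus strand, and Eif1b from chromosome 9, 120492811, plus strand).
Eif1: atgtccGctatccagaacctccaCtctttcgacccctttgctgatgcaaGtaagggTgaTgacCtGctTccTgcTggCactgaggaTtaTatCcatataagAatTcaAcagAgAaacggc
Eif1b: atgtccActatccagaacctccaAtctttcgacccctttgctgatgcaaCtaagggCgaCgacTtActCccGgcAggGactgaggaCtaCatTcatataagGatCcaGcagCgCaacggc
Over the whole coding sequence the identity was 81.1%, with no 50-base window in common.

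Eif1 (ENSMUSG00000035530.13, chromosome 11, 100319885 to 100322096, plus strand) had 536, 717 and 1012 CPM in double-LOF and 1091, 1434 and 1915 CPM in SRF-LOF embryos. DUX-LOF embryos had 438, 656 and 914 CPM, against 778, 1117 and 1959 CPM in control embryos (lowest, median and highest embryo in internal reads, as for every gene given 3 values; coordinates are of GRCm38). Every double-LOF embryo lay below every SRF-LOF embryo, and both groups with DUX_ASO overlapped the controls only at the lower end of these. Its log2 fold change was -0.76 ± 0.18 (adjusted p = 0.00259) in double-LOF, 0.21 ± 0.20 (adjusted p = 0.492) in SRF-LOF and -0.93 ± 0.19 (adjusted p = 0.000605) in DUX-LOF over control. Double-LOF over SRF-LOF embryos gave -0.97 ± 0.19 (adjusted p = 0.000305). In 5' reads the value was 0.0284 in DUX-LOF over control and 0.002 in double-LOF over SRF-LOF, and scaling to the maternal list brought the second comparison to 0.0298. Eif1b (ENSMUSG00000006941.5, chromosome 9, 120492232 to 120495330, plus strand) had 19.7, 32.5 and 84.4 CPM in double-LOF and 25.6, 187 and 489 CPM in SRF-LOF embryos. DUX-LOF embryos had 24.1, 48.8 and 61.6 CPM, against 26.5, 87.9 and 131 CPM in control embryos. It was the member that passed in SRF-LOF against control embryos, at 1.62 ± 0.41 (adjusted p = 0.0336), where the groups overlapped (adjusted p = 0.151 without SRF-LOF 4, under the threshold in 25 of 35 omissions of a library). SRF-LOF 3 and 8 had 25.6 and 93.02 CPM, the other 5 SRF-LOF embryos 167 to 489 CPM. Double-LOF against SRF-LOF embryos gave -2.55 ± 0.40 (adjusted p = 2.23e-05), and the comparisons with control gave -0.92 ± 0.38 (adjusted p = 0.0821) in double-LOF and -0.79 ± 0.39 (adjusted p = 0.161) in DUX-LOF embryos. Eif1b made up a median of 3.87% of the summed CPM of both genes in double-LOF, 11.5% in SRF-LOF and 6.28% in DUX-LOF, against 5.99% in control embryos.

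Of the eIF1A genes, Eif1ax (ENSMUSG00000067194.6, chromosome X, 159372178 to 159389928, plus strand) had 7.19, 23.9 and 43.4 CPM in double-LOF and 50.3, 119 and 228 CPM in SRF-LOF embryos. DUX-LOF embryos had 19.8, 44.8 and 76.6 CPM, against 27.5, 84.4 and 139.6 CPM in control embryos. Double-LOF embryos were lowest and did not overlap with SRF-LOF embryos. The log2 fold change was -1.70 ± 0.31 (adjusted p = 0.000172) in double-LOF, 0.56 ± 0.33 (adjusted p = 0.275) in SRF-LOF and -0.89 ± 0.31 (adjusted p = 0.0428) in DUX-LOF over control (adjusted p = 0.0954 without control 3, under the threshold in 25 of 35 omissions of a library). Double-LOF over SRF-LOF embryos gave -2.26 ± 0.33 (adjusted p = 5.81e-06). Its paralogue Eif1a, 85.7% identical in coding sequence, spread from 2.56 to 197 CPM among controls and fell in double-LOF embryos, at -1.66 ± 0.55 (adjusted p = 0.0299, and 0.054 without control 4, under the threshold in 30 of 35 omissions of a library), with -1.04 ± 0.56 (adjusted p = 0.208) in DUX-LOF and -1.13 ± 0.61 (adjusted p = 0.238) in SRF-LOF embryos. Eif1ad, which encodes a protein with an eIF1A-like domain, fell, at -1.13 ± 0.27 (adjusted p = 0.00265) in double-LOF and -0.83 ± 0.28 (adjusted p = 0.0343) in DUX-LOF embryos (adjusted p = 0.0738 without DUX-LOF 6, under the threshold in 23 of 35 omissions of a library), while SRF-LOF embryos gave -0.81 ± 0.30 (adjusted p = 0.11).

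Of the 4 eIF2 genes 2 fell in double-LOF embryos, where 9.31% of all genes did. Eif2s1, which encodes the alpha subunit whose phosphorylation lowers initiation, fell in double-LOF embryos, at -0.80 ± 0.28 (adjusted p = 0.0362, and 0.0853 without control 1, under the threshold in 25 of 35 omissions of a library), and Eif2s2, for the beta subunit, at -0.66 ± 0.20 (adjusted p = 0.0141). Their medians were 95.5 CPM in double-LOF, 124 CPM in SRF-LOF, 138 CPM in DUX-LOF and 187 CPM in control embryos for Eif2s1, and 161 CPM in double-LOF, 201 CPM in SRF-LOF, 179 CPM in DUX-LOF and 252 CPM in control embryos for Eif2s2. In DUX-LOF embryos the values were -0.41 ± 0.28 (adjusted p = 0.337) and -0.26 ± 0.20 (adjusted p = 0.401), in SRF-LOF embryos -0.41 ± 0.30 (adjusted p = 0.382) and -0.27 ± 0.22 (adjusted p = 0.419). RefSeq (GRCm38.p6) gave promoter entries for 39 of 51 members, 51 entries in all. The 250 upstream bases were searched for the CArG box, the sequence SRF is known to bind, on both strands, and it stood in 1 of the 51 member entries, beside 1.47% of all 32851 entries. A motif of the kind DUX is known to bind, searched in the same way, stood in 0 of the 51 member entries, beside 0.0974% of all entries. The entry with the box is that of Eif2s1, shown from 161 to 42 bases before the RefSeq start (chr12:78861911-78862030, plus strand), with the box in capitals. In GENCODE M21 the gene begins at 78861819, so the stretch shown lies within the gene as annotated there.
Eif2s1 promoter: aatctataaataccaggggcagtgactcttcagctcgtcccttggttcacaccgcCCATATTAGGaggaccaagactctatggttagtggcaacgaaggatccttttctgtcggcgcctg

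The gamma subunit of eIF2 is encoded on both sex chromosomes. The starts of Eif2s3x and Eif2s3y are shown because the count tables list these close copies apart. Capitals mark the 19 of 120 positions that differ (GENCODE M21, GRCm38, Eif2s3x from chromosome X, 94212633, minus strand, and Eif2s3y from chromosome Y, 1010617, plus strand).
Eif2s3x: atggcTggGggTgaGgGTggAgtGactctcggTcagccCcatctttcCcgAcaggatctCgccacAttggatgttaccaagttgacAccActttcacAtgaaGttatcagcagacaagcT
Eif2s3y: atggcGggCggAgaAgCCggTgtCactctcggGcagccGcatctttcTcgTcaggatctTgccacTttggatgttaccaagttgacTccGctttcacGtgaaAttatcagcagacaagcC
The coding sequences were 86.3% identical with no 50-base window in common, although 35.5% of the Eif2s3x windows stand in the predicted gene Gm2223. Eif2s3x had medians of 34.3 CPM in double-LOF, 45.2 CPM in SRF-LOF, 54.7 CPM in DUX-LOF and 62.1 CPM in control embryos, and passed in no comparison. Eif2s3y was at 0 in 3 libraries of each group and reached 58.4 CPM in double-LOF, 6.81 CPM in SRF-LOF, 47.0 CPM in DUX-LOF and 33.3 CPM in control embryos. With -2.09 ± 1.11 (adjusted p = 0.236) in SRF-LOF over control its error was the widest among the members tested. Of the alternative carriers of initiator tRNA, Eif2a passed in no comparison and Eif2d was lower in double-LOF than in SRF-LOF embryos, at -0.68 ± 0.26 (adjusted p = 0.049). That call passed in 2 of 12 alternative settings, turned to 0.425 under scaling to the maternal list, and was at adjusted p = 0.209 without SRF-LOF 9, under the threshold in 12 of 35 omissions of a library.

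In eIF2B, the exchange factor that recharges eIF2, 3 of 5 genes fell in double-LOF and 2 in DUX-LOF embryos, where 9.31% and 8.21% of all genes did. Eif2b1 encodes the regulatory alpha subunit and held the largest share of eIF2B counts. Eif2b1 (ENSMUSG00000029388.14, chromosome 5, 124570213 to 124579131, minus strand) had 186, 283 and 865 CPM in double-LOF and 596, 1364 and 2500 CPM in SRF-LOF embryos. DUX-LOF embryos had 185, 252 and 358 CPM, against 377, 630.4 and 1323 CPM in control embryos. DUX-LOF embryos lay wholly below the controls, and SRF-LOF embryos reached above them. The log2 fold change was -1.18 ± 0.28 (adjusted p = 0.00249) in double-LOF, 0.88 ± 0.30 (adjusted p = 0.0911) in SRF-LOF and -1.57 ± 0.29 (adjusted p = 0.000241) in DUX-LOF over control. The value was -2.06 ± 0.30 (adjusted p = 5.12e-06) in double-LOF over SRF-LOF embryos. Its calls with DUX_ASO were kept under all 12 alternative settings and each omission of a library. The other regulatory subunits followed in part: Eif2b2 fell, at -1.28 ± 0.36 (adjusted p = 0.0104) in double-LOF and -1.24 ± 0.37 (adjusted p = 0.0175) in DUX-LOF embryos, and Eif2b4 at -1.89 ± 0.51 (adjusted p = 0.00732) in double-LOF embryos, with -1.44 ± 0.52 (adjusted p = 0.0503) in DUX-LOF embryos. The catalytic subunits Eif2b3 and Eif2b5 passed in no comparison, with -0.22 ± 0.39 (adjusted p = 0.751) and -0.56 ± 0.38 (adjusted p = 0.323) in double-LOF over control.

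Of the 14 eIF3 genes 3 fell in double-LOF against control embryos (Eif3d, Eif3i and Eif3j1), beside 9.31% of all genes lower, and 2 in DUX-LOF against control (Eif3i and Eif3k), beside 8.21%. None was higher there, and in SRF-LOF against control the smallest adjusted p was 0.0571 for Eif3g. The median log2 fold change over the 14 genes was -0.79 in double-LOF, -0.96 in SRF-LOF and -0.33 in DUX-LOF over control. Eif3a, Eif3b, Eif3c, Eif3e, Eif3f, Eif3g, Eif3h, Eif3j2, Eif3l and Eif3m passed in no comparison of internal reads with all libraries. In 5' reads Eif3c fell in double-LOF against control embryos, at -1.41 ± 0.44 (adjusted p = 0.0201). In the same reads Eif3a (1.12 ± 0.39, adjusted p = 0.031) and Eif3g (1.42 ± 0.55, adjusted p = 0.0488) were higher in double-LOF than in SRF-LOF embryos. Eif3i (ENSMUSG00000028798.16, chromosome 4, 129591960 to 129600648, minus strand), which encodes a peripheral WD-repeat subunit, had 94.4, 153 and 311 CPM in double-LOF and 281, 487 and 637 CPM in SRF-LOF embryos. DUX-LOF embryos had 111, 134 and 182 CPM, against 188, 316 and 429.9 CPM in control embryos. DUX-LOF embryos lay wholly below the controls, and SRF-LOF embryos reached above them. The log2 fold change was -0.87 ± 0.19 (adjusted p = 0.00138) in double-LOF, 0.64 ± 0.21 (adjusted p = 0.0804) in SRF-LOF and -1.10 ± 0.20 (adjusted p = 0.000164) in DUX-LOF over control. Double-LOF over SRF-LOF embryos gave -1.51 ± 0.20 (adjusted p = 1.75e-06). Eif3d (ENSMUSG00000016554.9, chromosome 15, 77958998 to 77970813, minus strand), whose protein can bind the cap of some mRNAs, had 1.58, 7.03 and 15.8 CPM in double-LOF and 5.08, 14.5 and 20.6 CPM in SRF-LOF embryos. DUX-LOF embryos had 6.20, 14.7 and 34.1 CPM, against 8.96, 17.4 and 63.1 CPM in control embryos. Its groups overlapped, with 8 of 10 double-LOF embryos below every control. It fell in double-LOF embryos, at -1.84 ± 0.41 (adjusted p = 0.00153), and stood at -1.13 ± 0.44 (adjusted p = 0.125) in SRF-LOF and -0.72 ± 0.40 (adjusted p = 0.232) in DUX-LOF embryos. Eif3k fell in DUX-LOF embryos, at -0.85 ± 0.28 (adjusted p = 0.0313, and 0.0807 without DUX-LOF 10, under the threshold in 28 of 35 omissions of a library), and in double-LOF against SRF-LOF embryos, at -0.99 ± 0.29 (adjusted p = 0.00992). The loosely bound subunit eIF3j has a pair of near-identical genes. Eif3j1 fell in double-LOF embryos, at -1.003 ± 0.28 (adjusted p = 0.00945), and its near copy Eif3j2 stood at -0.96 ± 0.44 (adjusted p = 0.119); the pair is 99.2% identical in coding sequence and 99.7% of the Eif3j1 coding windows stand in Eif3j2, so both values are uncertain.

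Within the SRF-LOF group, SRF-LOF 3 and 8 both lay above the other 5 embryos for 8 of 14 eIF3 genes and overlapped with them for 6 (Eif3d, Eif3f, Eif3h, Eif3i, Eif3j2 and Eif3k). They lay above the other 5 for 22 of the 50 tested members, Eif1a and Eif2b4 among them, and for 24.5% of all genes, while both lay below the other 5 for 6 members and 20.5% of all genes. SRF-LOF 3 and 8 had 206 and 189 CPM of Eif3c, against 7.67 to 46.4 CPM in the other 5. For Eif3m they had 66.4 and 33.1 CPM, against 1.08 to 4.26 CPM in the other 5, and for Eif3l 80.9 and 110.5 CPM, against 3.41 to 25.4 CPM. For Eif3a they had 238 and 94.9 CPM, against 14.2 to 49.04 CPM. These 4 encode subunits of the eIF3 scaffold. For Eif3i they had 281 and 398 CPM, against 392 to 637 CPM, so that both stood among or below the others. Control 2 and 9 both lay below the other controls for 4 eIF3 genes (Eif3b, Eif3c, Eif3h and Eif3m), beside 13.7% of all genes, and overlapped with them for the other 10. They had 0 counts of Eif3m, and 19.2 and 34.8 CPM of Eif3c, against 74.2 to 388 CPM in the other controls, but 56.3 and 68.3 CPM of Eif3a, against 49.9 to 241 CPM, and 25.6 and 59.1 CPM of Eif3l, against 48.6 to 188 CPM.

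**Figure D4:**
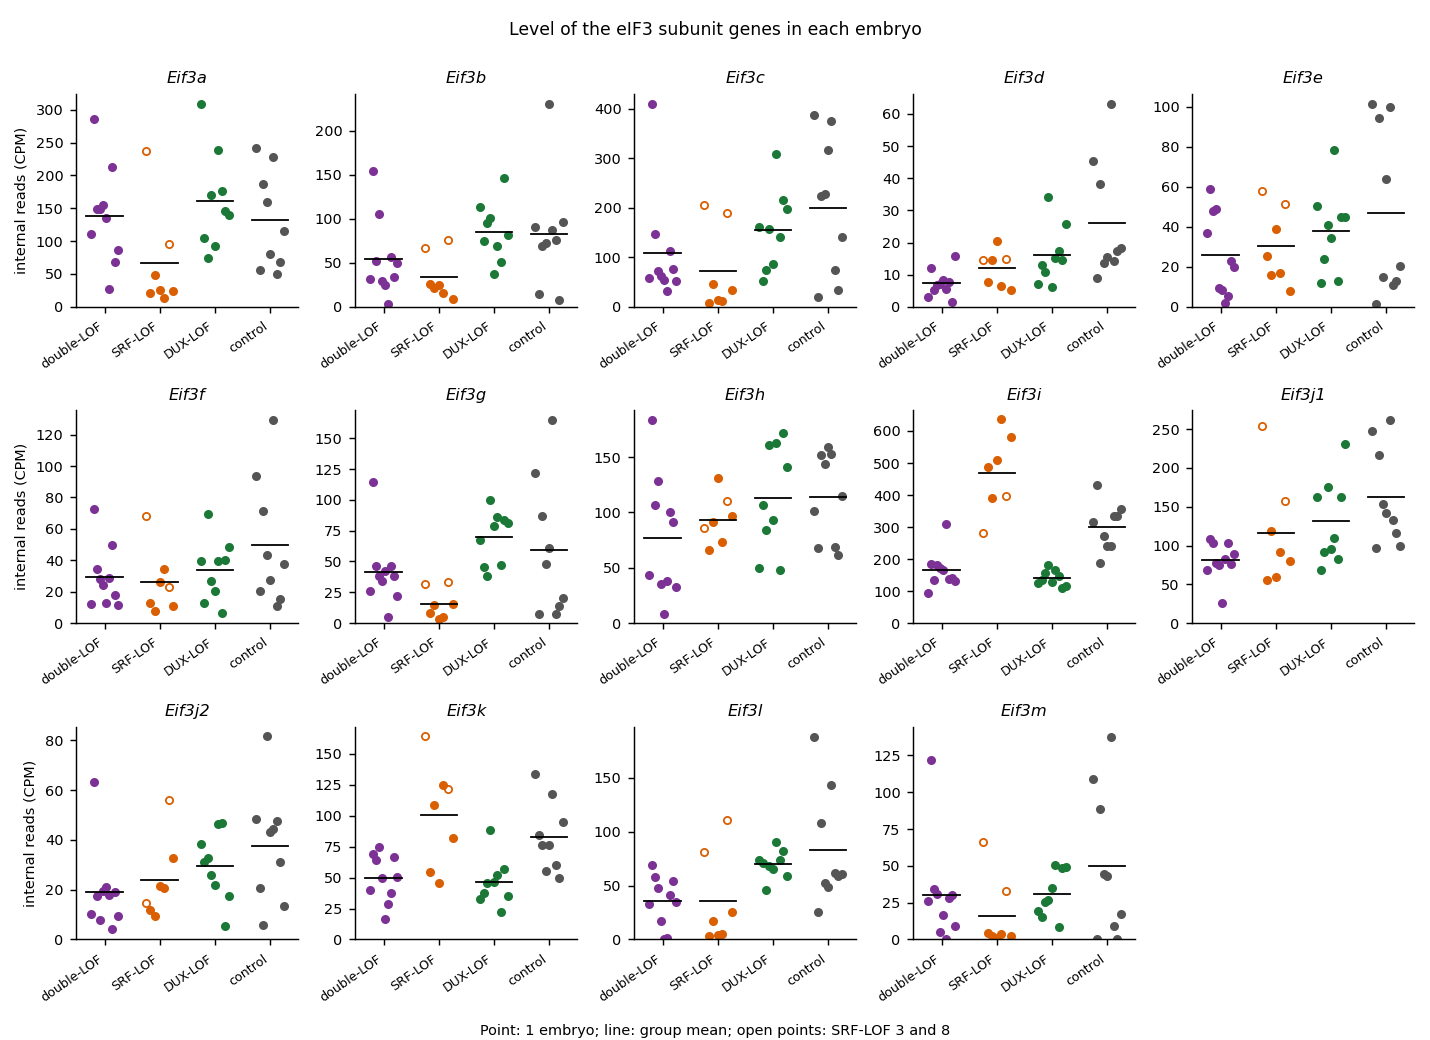
Internal-read level (CPM) of the 14 eIF3 genes in every embryo; a point is 1 embryo, a line the group mean, and open points are SRF-LOF 3 and 8. For Eif3c and Eif3m the open points (206 and 189 CPM, 66.4 and 33.1 CPM) lie above all filled SRF-LOF points, and for Eif3i (281 and 398 CPM) they lie among or below them.

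The eIF4A helicase unwinds the mRNA leader. Its main gene, Eif4a1 (ENSMUSG00000059796.16, chromosome 11, 69666936 to 69672423, minus strand), had 274, 402 and 532 CPM in double-LOF and 611, 861 and 1101 CPM in SRF-LOF embryos. DUX-LOF embryos had 339.5, 517 and 571 CPM, against 614, 699 and 1447 CPM in control embryos. Every embryo with DUX_ASO lay below every embryo without it. The log2 fold change was -1.12 ± 0.18 (adjusted p = 2.16e-05) in double-LOF, -0.01 ± 0.19 (adjusted p = 0.974) in SRF-LOF and -0.79 ± 0.18 (adjusted p = 0.00208) in DUX-LOF over control. The value was -1.10 ± 0.19 (adjusted p = 4.19e-05) in double-LOF over SRF-LOF embryos. Under scaling to the maternal list the value for DUX-LOF over control turned to 0.0418. Of its transcript windows 65.3% also stand in other annotated transcripts, chiefly the pseudogene Eif4a-ps4, and how shared reads were counted is not given in the sources used here. Its paralogue Eif4a2, with a coding sequence 77.8% identical and no 50-base window in common, had medians of 144 CPM in double-LOF, 92.5 CPM in SRF-LOF, 139.7 CPM in DUX-LOF and 99.8 CPM in control embryos. In internal reads it stood at 0.28 ± 0.31 (adjusted p = 0.578) in double-LOF and 0.62 ± 0.31 (adjusted p = 0.182) in DUX-LOF over control. In 5' reads it passed in DUX-LOF over control, at 0.96 ± 0.29 (adjusted p = 0.0177), but not in double-LOF, at 0.57 ± 0.28 (adjusted p = 0.15). Its median share of the summed CPM of both genes was 27.7% in double-LOF, 9.64% in SRF-LOF and 21.2% in DUX-LOF, against 11.9% in control embryos. Eif4a3, the helicase of the exon junction complex, passed in no comparison.

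Of the cofactors of eIF4A, Eif4h fell in double-LOF embryos and Eif4b did not pass in internal reads. Eif4h (ENSMUSG00000040731.13, chromosome 5, 134619721 to 134639490, minus strand) had 26.96, 85.3 and 167 CPM in double-LOF and 75.95, 114 and 171 CPM in SRF-LOF embryos. DUX-LOF embryos had 77.8, 129 and 165 CPM, against 124, 170.3 and 255 CPM in control embryos. Of 10 double-LOF embryos 9 lay below every control, and the groups overlapped. The log2 fold change over control was -1.10 ± 0.25 (adjusted p = 0.00183) in double-LOF, -0.64 ± 0.28 (adjusted p = 0.16) in SRF-LOF and -0.46 ± 0.26 (adjusted p = 0.229) in DUX-LOF embryos. Eif4b, which stimulates the helicase, had medians of 230.0 CPM in double-LOF, 239.9 CPM in SRF-LOF, 198 CPM in DUX-LOF and 168 CPM in control embryos. In double-LOF over control Eif4b stood at 0.30 ± 0.17 (adjusted p = 0.225) in internal reads. It was higher there in 5' reads, by 0.67 ± 0.19 (adjusted p = 0.01). The eIF4G scaffolds join cap binder, helicase and eIF3. Eif4g3 was higher in double-LOF embryos, by 0.75 ± 0.25 (adjusted p = 0.0308, and 0.0776 without control 5, under the threshold in 26 of 35 omissions of a library), and in DUX-LOF embryos, by 0.75 ± 0.25 (adjusted p = 0.0374, and 0.0836 without DUX-LOF 10, under the threshold in 30 of 35 omissions of a library), with medians of 49.5 CPM in double-LOF, 31.8 CPM in SRF-LOF, 49.3 CPM in DUX-LOF and 30.02 CPM in control embryos. Eif4g1 and Eif4g2, the second of which lacks the site for eIF4E, were higher in double-LOF than in SRF-LOF embryos, by 0.86 ± 0.31 (adjusted p = 0.0344) and 0.88 ± 0.25 (adjusted p = 0.00862). For Eif4g1 that was adjusted p = 0.106 without SRF-LOF 7, under the threshold in 27 of 35 omissions of a library. Against control, Eif4g2 stood at -0.68 ± 0.25 (adjusted p = 0.112) in SRF-LOF embryos.

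Among the 4 genes of cap-binding proteins, Eif4e2 fell in double-LOF and DUX-LOF embryos and Eif4e3 in DUX-LOF embryos. Eif4e encodes the canonical cap binder, Eif4e1b a form of oocytes and early embryos, Eif4e2 a weak cap binder that represses translation, and Eif4e3 a divergent form. Eif4e2 (ENSMUSG00000026254.17, chromosome 1, 87213914 to 87240488, plus strand) had 5.18, 14.9 and 30.6 CPM in double-LOF and 8.53, 20.6 and 63.9 CPM in SRF-LOF embryos. DUX-LOF embryos had 9.93, 16.8 and 43.7 CPM, against 14.1, 43.2 and 105 CPM in control embryos. Its group ranges overlapped, with the highest values among controls. It fell, at -1.79 ± 0.41 (adjusted p = 0.00195) in double-LOF and -1.35 ± 0.42 (adjusted p = 0.021) in DUX-LOF embryos (adjusted p = 0.0544 without control 6, under the threshold in 34 of 35 omissions of a library), and was at -0.94 ± 0.44 (adjusted p = 0.191) in SRF-LOF embryos. Eif4e3 (ENSMUSG00000093661.1, chromosome 6, 99625135 to 99666771, minus strand) had 151, 196 and 478 CPM in double-LOF and 220.4, 595 and 692 CPM in SRF-LOF embryos. DUX-LOF embryos had 106, 162 and 288 CPM, against 210.5, 312 and 564 CPM in control embryos. Above every control stood 4 of 7 SRF-LOF embryos, and below every control 8 of 9 DUX-LOF embryos. Its log2 fold change was -0.50 ± 0.24 (adjusted p = 0.144) in double-LOF, 0.57 ± 0.26 (adjusted p = 0.179) in SRF-LOF and -1.05 ± 0.25 (adjusted p = 0.00312) in DUX-LOF over control. Double-LOF over SRF-LOF embryos gave -1.07 ± 0.26 (adjusted p = 0.00208). Eif4e had medians of 568 CPM in double-LOF, 1229 CPM in SRF-LOF, 600.4 CPM in DUX-LOF and 695 CPM in control embryos. It fell in double-LOF against SRF-LOF embryos, at -0.82 ± 0.25 (adjusted p = 0.0133), a value that scaling to the maternal list turned to 0.412. Eif4e1b varied widely within groups, with 18.4, 223 and 1436 CPM in double-LOF and 98.8, 683 and 1755 CPM in SRF-LOF embryos. DUX-LOF embryos had 52.98, 147 and 337 CPM, against 44.6, 136 and 613 CPM in control embryos. It passed in no comparison with all libraries. SRF-LOF 3 and 8 had 98.8 and 202 CPM of Eif4e1b, against 514 to 1755 CPM in the other SRF-LOF embryos, and control 2 and 9 had 429 and 613 CPM, against 44.6 to 259.7 CPM in the other controls.

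Among the proteins that bind eIF4E, Eif4enif1 was far higher in both groups that received DUX_ASO. It encodes 4E-T, which binds eIF4E, gathers in cytoplasmic granules and is known for storing maternal mRNA in the oocyte. Eif4enif1 (ENSMUSG00000020454.17, chromosome 11, 3202392 to 3244588, plus strand) had 192, 368 and 473 CPM in double-LOF and 40.03, 57.4 and 92.5 CPM in SRF-LOF embryos. DUX-LOF embryos had 209, 373 and 441 CPM, against 33.6, 65.7 and 115 CPM in control embryos. The embryos with DUX_ASO and those without it did not overlap, a separation that 1.31% of all genes showed in double-LOF against control and 2.19% in DUX-LOF against control. The log2 fold change over control was 2.31 ± 0.22 (adjusted p = 1.46e-09) in double-LOF, -0.25 ± 0.23 (adjusted p = 0.482) in SRF-LOF and 2.26 ± 0.22 (adjusted p = 4.59e-09) in DUX-LOF embryos. The value was 2.56 ± 0.24 (adjusted p = 3.11e-09) in double-LOF over SRF-LOF embryos. All 12 alternative settings and each omission of a library kept the calls with DUX_ASO.

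In the family of 4E-BP repressors, which block the site of eIF4E that eIF4G needs, Eif4ebp1 fell in double-LOF and DUX-LOF embryos. Eif4ebp1 (ENSMUSG00000031490.6, chromosome 8, 27260329 to 27276674, plus strand), the founding member, had 0, 10.2 and 55.04 CPM in double-LOF and 11.9, 23.4 and 79.2 CPM in SRF-LOF embryos. DUX-LOF embryos had 4.03, 26.3 and 70.6 CPM, against 12.8, 62.03 and 169.8 CPM in control embryos. In double-LOF embryos 1 library was at 0. All 10 double-LOF embryos lay below the control median, and all groups overlapped. It fell in double-LOF embryos, at -2.48 ± 0.53 (adjusted p = 0.000972) on the log2 scale, and in DUX-LOF embryos, at -1.56 ± 0.53 (adjusted p = 0.0365, and 0.0899 without control 10, under the threshold in 23 of 35 omissions of a library), and stood at -1.11 ± 0.56 (adjusted p = 0.216) in SRF-LOF embryos. Eif4ebp2 did not pass in internal reads, at 0.75 ± 0.36 (adjusted p = 0.143) in double-LOF and 0.73 ± 0.37 (adjusted p = 0.175) in DUX-LOF embryos. In 5' reads Eif4ebp2 was higher in double-LOF than in SRF-LOF embryos, by 0.99 ± 0.37 (adjusted p = 0.0426). The rare Eif4ebp3 averaged 3.83 CPM in double-LOF, 0.452 CPM in SRF-LOF, 3.85 CPM in DUX-LOF and 0.745 CPM in control embryos and was not tested; 65.5% of its 50-base transcript windows also stand in an annotated transcript of another gene, so its reads are uncertain.

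Of the factors of the last steps, Eif5, Eif6 and Eif5a fell in double-LOF embryos, while Eif5b and Eif5a2 passed in no comparison in internal reads. Eif5, which encodes the protein that triggers GTP hydrolysis on eIF2, had medians of 634 CPM in double-LOF, 756 CPM in SRF-LOF, 721 CPM in DUX-LOF and 1017 CPM in control embryos. It fell, at -0.71 ± 0.19 (adjusted p = 0.00641) in double-LOF and -0.65 ± 0.19 (adjusted p = 0.0174) in DUX-LOF embryos, though scaling to the maternal list brought the value in DUX-LOF to 0.0771. Eif5b, the GTPase of subunit joining, had medians of 171 CPM in double-LOF, 163 CPM in SRF-LOF, 178 CPM in DUX-LOF and 229 CPM in control embryos. In double-LOF over control Eif5b stood at -0.43 ± 0.22 (adjusted p = 0.173) in internal reads. It fell there in 5' reads, at -0.61 ± 0.23 (adjusted p = 0.0474). Eif6, which keeps the large ribosomal subunit apart from the small one, had medians of 211 CPM in double-LOF, 367 CPM in SRF-LOF, 291 CPM in DUX-LOF and 613 CPM in control embryos. It fell, at -1.28 ± 0.30 (adjusted p = 0.00211) in double-LOF and -1.003 ± 0.31 (adjusted p = 0.0198) in DUX-LOF embryos (adjusted p = 0.0546 without control 5, under the threshold in 33 of 35 omissions of a library). Eif5a had medians of 855 CPM in double-LOF, 1752 CPM in SRF-LOF, 1078 CPM in DUX-LOF and 1651 CPM in control embryos. In DUX-LOF over control Eif5a stood at -0.56 ± 0.22 (adjusted p = 0.0776) in internal reads and passed in 5' reads, at -0.70 ± 0.23 (adjusted p = 0.0305). It fell, at -0.68 ± 0.22 (adjusted p = 0.022) in double-LOF over control and -0.81 ± 0.23 (adjusted p = 0.00763) in double-LOF over SRF-LOF embryos; the second value turned to 0.163 under scaling to the maternal list. Eif5a2, its rare paralogue, had medians of 11.1 CPM in double-LOF, 7.95 CPM in SRF-LOF, 10.6 CPM in DUX-LOF and 9.97 CPM in control embryos.

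SRF-LOF 3 and 8 also had a lower level of Srf reads (181 and 93.02 CPM, against 224 to 810.0 CPM in the other SRF-LOF embryos). In these reads the injected SRF-DN mRNA and the embryo's own Srf cannot be told apart. Each SRF-LOF result was therefore computed again without SRF-LOF 3 and 8. These libraries were picked for their own expression, after the data were seen, so the values below are no independent evidence. Without them 26 of 50 members passed in SRF-LOF against control, 6 higher and 20 lower, beside 33.4% of all genes. The 6 higher members were Eif1b at 1.999 ± 0.37 (adjusted p = 0.000262), Eif4e1b at 2.17 ± 0.58 (adjusted p = 0.00461), Eif2b1 at 1.15 ± 0.31 (adjusted p = 0.00463), Eif4e at 0.85 ± 0.26 (adjusted p = 0.0111), Eif4e3 at 0.79 ± 0.27 (adjusted p = 0.0214) and Eif3i at 0.79 ± 0.22 (adjusted p = 0.00687). They act at the start codon, at the cap, in eIF2 exchange and in eIF3. Of the 14 eIF3 genes 8 were lower, 1 was higher and 5 did not pass, beside 33.4% of all genes in either direction. The embryos left out had lain above the other SRF-LOF embryos for 8 of these 14 genes, so this count is not independent of the choice. Among the lower were Eif3m at -4.13 ± 0.996 (adjusted p = 0.00222), Eif3c at -3.16 ± 0.66 (adjusted p = 0.000762), Eif3l at -2.90 ± 0.59 (adjusted p = 0.000576) and Eif3a at -2.32 ± 0.47 (adjusted p = 0.000535). Eif2b4 at -2.72 ± 0.59 (adjusted p = 0.000991), Eif4g1 at -1.45 ± 0.32 (adjusted p = 0.00106) and Eif4g2 at -1.01 ± 0.28 (adjusted p = 0.00582) were lower too. Leaving out control 2 and 9 with double-LOF 7 instead gave 19 members, 5 higher and 14 lower, beside 18.5% of all genes.

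Adding SRF-DN to DUX_ASO changed no member past the threshold. In double-LOF against DUX-LOF embryos 0 of 50 members passed with edgeR and 0 with DESeq2, beside 0.00816% of all genes. At an unadjusted p under 0.05 there were 8 members. Groups without overlap were seen for 0 members, beside 0.0408% of all genes. Of 50 members 38 had a log2 fold change below zero, with a median of -0.29 beside 0.01 for all genes. Eif4e1b, at 1.21 ± 0.54 (adjusted p = 0.734), and Eif3d, at -1.12 ± 0.41 (adjusted p = 0.734), had the largest fitted changes among the members, and Eif1ax stood at -0.80 ± 0.31 (adjusted p = 0.734). The interaction was the double-LOF minus DUX-LOF difference minus the SRF-LOF minus control difference. Controls received SCR_ASO but SRF-LOF embryos no oligonucleotide, so it also holds the injection of an oligonucleotide as such. That cannot be told apart from a different action of SRF-DN with and without DUX_ASO. The interaction passed for 0 members with edgeR and 0 with DESeq2, beside 0% of all genes, with 3 members at an unadjusted p under 0.05. Without SRF-LOF 3 and 8 it passed for 9 members, beside 9.13% of all genes, positive for Eif2b2, Eif2b4, Eif3a, Eif3c, Eif3m, Eif4g1 and Eif4g2 and negative for Eif1b and Eif1ax, with -2.14 ± 0.49 (adjusted p = 0.00932) for Eif1b and 2.09 ± 0.56 (adjusted p = 0.0201) for Eif3a.

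DUX_ASO was set against its absence in 2 settings that share no embryo, double-LOF against SRF-LOF and DUX-LOF against control. The settings are unlike: controls received SCR_ASO but SRF-LOF embryos no oligonucleotide, so in double-LOF against SRF-LOF the DUX_ASO and the injection of an oligonucleotide as such cannot be told apart. In double-LOF against SRF-LOF 14 members passed, 3 higher and 11 lower, beside 27.3% of all genes (14.4% higher and 12.9% lower). The split moved with the scaling, to 11 higher and 3 lower with the maternal list, 8 and 7 without TMM factors, 6 and 10 with DESeq2 size factors and 2 and 4 with ERCC. Members that passed in both numbered 8 (Eif1, Eif1ax, Eif2b1, Eif3i, Eif3k, Eif4a1, Eif4e3 and Eif4enif1), which is 57.1% of the 14 and 53.3% of the 15 of DUX-LOF against control, and all 8 had the same direction. Of all genes 1426 passed in both, which is 42.6% of 3345 and 68.5% of 2081, and all of these too had the same direction. Groups without overlap were seen for 4 members in double-LOF against SRF-LOF (Eif1, Eif1ax, Eif4a1 and Eif4enif1), beside 2.7% of all genes. They were seen for 4 in DUX-LOF against control (Eif2b1, Eif3i, Eif4a1 and Eif4enif1), beside 2.19%. In double-LOF against control 2 members showed this (Eif4a1 and Eif4enif1), beside 1.31%. In SRF-LOF against control 0 members showed this, beside 0.0897% of all genes. Maternal oocyte transcripts moved with this contrast: of 26 tested, 0 rose and 15 fell in double-LOF against SRF-LOF, and 0 rose and 10 fell in DUX-LOF against control. Late 2-cell markers did so too, with 7 of 9 lower in each. Their summed levels still overlapped between DUX-LOF embryos, which reached 874 CPM, and controls, which began at 580 CPM.

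The 5' reads, a separate count of the same libraries, gave 22 members in double-LOF against control, 3 higher and 19 lower, beside 22% of all genes (11.8% higher and 10.2% lower). They gave 1, higher, in SRF-LOF against control, beside 2.24% (1.4% higher and 0.841% lower), and 12 in DUX-LOF against control, 3 higher and 9 lower, beside 18.1% (9.71% higher and 8.39% lower). In double-LOF against SRF-LOF 17 passed, 7 higher and 10 lower, beside 27.6% (14.8% higher and 12.8% lower), and in double-LOF against DUX-LOF no member did, beside 0.0168%, nor in the interaction. Of the 15 members called by internal reads in DUX-LOF against control 10 were also called by 5' reads, which is 66.7% of the 15 and 83.3% of the 12. Both read classes come from the same embryos and are no replicates of each other. For Eif1 the read classes gave different values. Its mean 5' level was 209 CPM in double-LOF, 209 CPM in SRF-LOF, 241 CPM in DUX-LOF and 236.5 CPM in control embryos, and DUX-LOF over control gave 0.03 ± 0.19 (adjusted p = 0.942) in 5' reads.

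The log2 ratio of 5' to internal CPM, with 1 CPM added to each, was tested with limma over 10980 genes. For Eif1 it averaged -1.86 ± 0.33 in double-LOF, -2.87 ± 0.33 in SRF-LOF and -1.47 ± 0.31 in DUX-LOF, against -2.40 ± 0.32 in control embryos (SD). The difference was 0.93 ± 0.17 in DUX-LOF over control (adjusted p = 0.00296) and 1.001 ± 0.18 in double-LOF over SRF-LOF embryos (adjusted p = 0.000995). In these comparisons 2 members each passed, beside 1.41% and 2.37% of all genes: the other member was Eif4b in DUX-LOF over control, at 0.39 ± 0.10 (adjusted p = 0.0467), and Eif3c in double-LOF over SRF-LOF, at -0.96 ± 0.25 (adjusted p = 0.0317). In double-LOF over control 1 passed, Eif4b at 0.39 ± 0.10 (adjusted p = 0.0349), beside 2.05% of all genes, while no member passed by limma in SRF-LOF over control, beside 0.0546%, in double-LOF over DUX-LOF, beside 0.00911%, or in the interaction, beside 0.00911%. Of the Eif1 transcript windows 21.4% also stand in other annotated transcripts; the part of shared reads in this ratio was not tested.

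**Figure D5:**
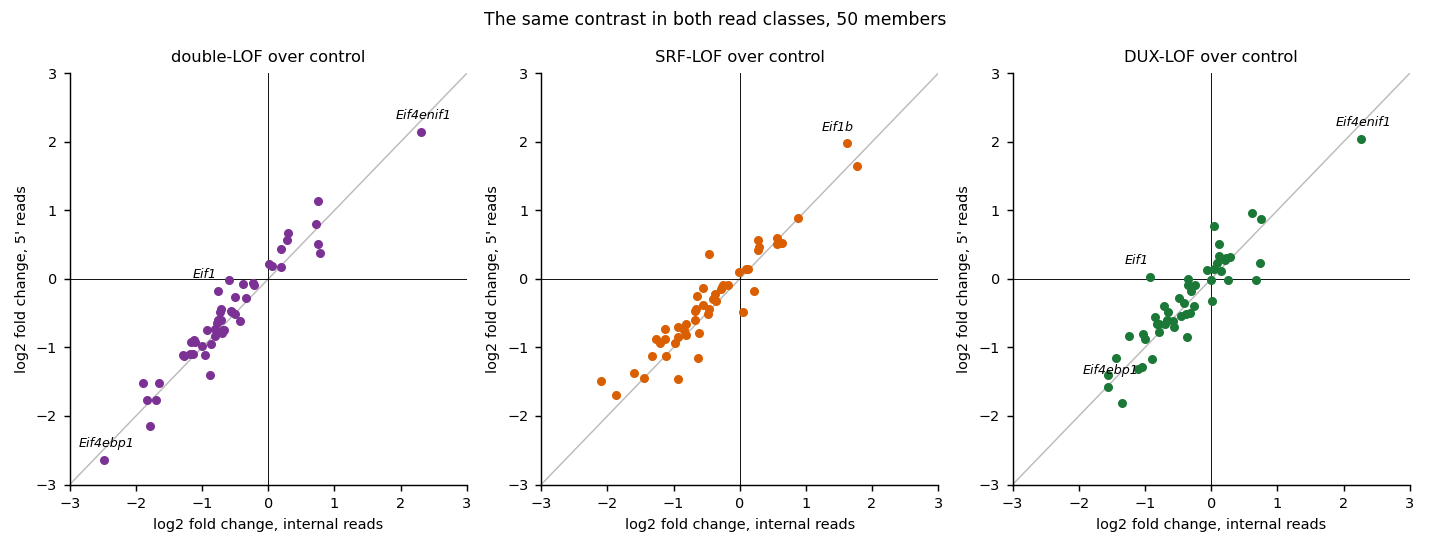
Log2 fold change over control of the 50 tested members in internal reads (x axis) and 5' reads (y axis), in double-LOF (left), SRF-LOF (middle) and DUX-LOF embryos (right); the grey line marks equal values. Most points lie along the line, and Eif1 in DUX-LOF embryos lies off it, at -0.93 in internal and 0.03 in 5' reads.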

How the data were processed

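The authors deposited for each of 35 embryos a table of internal-read counts and a table of 5'-read counts, per the file headers. The deposited internal values are raw counts. The authors deposited the 5' values as whole numbers too, treated here as estimated counts, and rounding changed none. The submitters' processing notes name STAR 2.7.11a and the build GRCm38. The counter, its annotation release, use of strand and treatment of reads with several matches are not given in the sources used here. Antisense and overlapping genes therefore cannot be told apart. Shared reads were gauged from 50-base windows: 16 of 51 members have over 10% of their transcript windows in annotated transcripts of other genes.

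Symbols and coordinates come from GENCODE M21. Counts were tested with edgeR 4.0.16 (quasi-likelihood test, 4 groups in 1 fit, TMM factors, filterByExpr) in R 4.3.3, with Benjamini-Hochberg adjustment over all genes at 0.05, and every adjusted p is from this test unless limma 3.58.1 is named. Values after ± are standard errors for fold changes and SD for levels. The fit was tested on simulated data. Library totals of 220921 to 2039475 counts set the precision of low genes. No litter or injection day is labelled, so a p-value reflects only how these separate embryos vary. Full values were given for the 12 members with the smallest adjusted p, other members when they passed a test, belong to a paralogue pair or rank among the 5 highest per length. The members, the gene lists and the tests were chosen with earlier results of these data known, so the lists are no independent support. Other settings tried were DESeq2 1.42.0, edgeR with DESeq2 size factors, no TMM factor, ERCC scaling, maternal list scaling, no count filter, only the compared groups, the embryo number as a block, 5' reads, 1 shallow library left out and each library left out in turn. Leaving out the libraries that stood apart, and adding 0.5 or 5 CPM in the ratio of read classes, were chosen after seeing the data.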

Additional observations from a re-analysis of the deposited data

Results flagged for a closer look

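In 2 of 52 groups of embryos examined, for 13 quantities each in 4 groups, a library lay far from the others of its group by Dixon's criterion, which chance passes in about 1 in 20 groups. For Eif4enif1, double-LOF 7 stood at 7.59 on the log2(CPM + 1) scale, against 8.22 to 8.89 in the other 9 double-LOF embryos. For Eif4h, DUX-LOF 7 stood at 6.30, against 6.83 to 7.37 in the other 8 DUX-LOF embryos.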

How the results depend on the processing

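Counts of members called are given in the order double-LOF, SRF-LOF and DUX-LOF against control, double-LOF against DUX-LOF, double-LOF against SRF-LOF, and the interaction, with 21, 1, 15, 0, 14 and 0 as reported. SRF-LOF against control was the least stable, and DESeq2 called 4 there. No TMM factor, ERCC scaling, maternal list scaling and a fit of the compared groups alone gave 0 each. SRF-LOF 3 and 8 left out gave 26, beside 33.4% of all genes. Control 2, control 9 and double-LOF 7 left out gave 19, beside 18.5%. Leaving out each library in turn gave 18 to 24, 0 to 15, 9 to 17, 0 to 0, 12 to 17 and 0 to 0. The share of all genes called moved as well. SRF-LOF against control gave 15 without SRF-LOF 3 (beside 15.7% of all genes), 6 without SRF-LOF 8 (10.1%) and 6 without control 2 (8.19%). DUX-LOF against control gave 9 without DUX-LOF 10 (14.1%). ERCC scaling gave 10 in double-LOF against control, 3 in DUX-LOF against control and 6 in double-LOF against SRF-LOF; maternal list scaling gave 8 in double-LOF and 7 in DUX-LOF against control, and no TMM factor 9 in DUX-LOF against control. Without SRF-LOF 3 and 8, double-LOF against SRF-LOF gave 22, beside 41.6% of all genes, and the interaction 9, beside 9.13%. The ratio of read classes in DUX-LOF against control gave 1 member with 5 CPM added. These scalings moved the median of all genes: in SRF-LOF over control to -0.83 (maternal list), -0.46 (ERCC) and -0.21 (no TMM), in DUX-LOF over control to 0.73, -0.04 and 0.20, and in double-LOF over SRF-LOF to 1.01, 0.42 and 0.34. For these changes the cause was not tested.

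Single calls changed sign in 8 of 612 cases and lost the threshold in 123. In 5' reads Eif1 stood at 0.0284 in DUX-LOF over control and at 0.002 in double-LOF over SRF-LOF. Under maternal list scaling Eif4a1 (0.0418) and Eif5 (0.0771) turned in DUX-LOF over control, and Eif1 (0.0298), Eif2d (0.425), Eif4e (0.412) and Eif5a (0.163) in double-LOF over SRF-LOF. Calls kept under all 12 alternatives and every omission of a library were 7 in double-LOF against control (Eif1ax, Eif2b1, Eif3d, Eif4a1, Eif4e2, Eif4ebp1 and Eif4enif1), 2 in DUX-LOF against control (Eif2b1 and Eif4enif1) and 5 in double-LOF against SRF-LOF (Eif1ax, Eif1b, Eif2b1, Eif4enif1 and Eif4g2). The 10 highest members per length were the same with the longest transcript and with unscaled totals.

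Embryo numbers recur across groups, but the labels do not say that they pair embryos: of 41 same-number pairs 16 correlated above 0.1 in their deviations, with a median r of 0.031, against 0.001 for other pairs. With the number as a replicate block the counts were 18, 0, 11, 0, 13 and 0. Depth limits rare members such as Eif4ebp3, and intervals cover embryos, not injections.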

Other observations

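Of 45 tested genes that work beside the initiation factors, in 6 lists, 10 passed in double-LOF (22.2%, beside 19.4% of all genes), 4 in SRF-LOF (8.89%, beside 2.02%) and 6 in DUX-LOF against control (13.3%, beside 17%). SRF-LOF against control was unstable: 0.064% of all genes passed without SRF-LOF 4, and 15.7% without SRF-LOF 3. Whether its 4 calls here (Eef2k, Pabpc1l, Mtor and Mknk2) last when single libraries are left out was not tested. Of 10 elongation factor genes 1 rose and 2 fell in double-LOF, 1 rose and 0 fell in SRF-LOF, and 1 rose and 1 fell in DUX-LOF against control embryos. The gene that rose in each was Eef2k, the kinase that brakes elongation factor 2, at 1.75 ± 0.45 in double-LOF (adjusted p = 0.005), 1.93 ± 0.47 in SRF-LOF (adjusted p = 0.0317) and 1.73 ± 0.45 in DUX-LOF embryos (adjusted p = 0.00685). Tufm, the mitochondrial elongation factor, fell, at -3.05 ± 0.85 in double-LOF (adjusted p = 0.00932) and at -2.42 ± 0.84 in DUX-LOF embryos (adjusted p = 0.0408). Eef1b2, an exchange factor of elongation, fell in double-LOF embryos, at -0.81 ± 0.30 (adjusted p = 0.0491). Of 12 genes of cap signalling and mTOR 2 fell in double-LOF (Rps6 and Rps6kb1), 2 in SRF-LOF (Mtor, at -1.72 ± 0.39 with an adjusted p of 0.0215, and Mknk2, at -1.29 ± 0.34 with 0.0427) and 1 in DUX-LOF embryos (Tsc1). Mtor and Mknk2, a kinase of eIF4E, were higher in double-LOF than in SRF-LOF embryos, by 2.37 ± 0.40 and 1.39 ± 0.34.

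Of the 6 tested genes for kinases of eIF2 alpha and for other regulators of its phosphorylation, Ppp1r15a fell in double-LOF (-0.78 ± 0.26) and in DUX-LOF embryos (-0.93 ± 0.27). The others passed in no comparison with control. Of 4 further helicases, Ddx6, a partner of 4E-T in stored mRNA granules, fell, at -1.68 ± 0.35 in double-LOF (adjusted p = 0.000627) and at -1.15 ± 0.35 in DUX-LOF embryos (adjusted p = 0.0181), while Dhx29 was higher, by 0.89 ± 0.26 and 0.84 ± 0.26. The release factor genes Gspt1 and Gspt2 fell in double-LOF embryos, at -1.38 ± 0.40 and -1.29 ± 0.41. Among 7 poly(A) binding genes Pabpc1l, the form of oocytes, rose in SRF-LOF embryos, by 1.89 ± 0.48 (adjusted p = 0.0371), and was lower in double-LOF than in SRF-LOF embryos, at -2.56 ± 0.48.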
